A study of Mus musculus with 12 samples.

Results

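The genes described here carry glucose into the cell, break it down to lactate, and respond to low oxygen. Of 33 such genes, chosen by name with earlier results of these data known, 29 had a probe on the bead array. Of the 33, 24 were measured, meaning that a probe of the gene stood above the negative controls (detection p below 0.05) in 3 or more of 12 arrays. They are 24 of the 8101 named genes measured in the series. The cells were RAW264.7, an established mouse macrophage line, and messenger RNA was measured in 4 groups of 3 biological replicates each: untreated cells, cells given gefitinib at 10 µM, cells given CpG at 10 µg/ml for 6 h, and cells given this CpG after 1 h with gefitinib at 10 µM. CpG DNA mimics bacterial DNA and is sensed by the receptor TLR9, and gefitinib is an inhibitor of the EGF receptor tyrosine kinase. All 4 groups grew in DMEM with serum, and the labels state no vehicle and no total incubation time for cells without CpG. A gefitinib pretreatment of 1 h is recorded for the gefitinib group as well. The series is described as a comparison of CpG with and without gefitinib. One cell line stands for macrophages throughout, and fewer cells of a state and less messenger RNA per cell cannot be told apart in such bulk samples.

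Glucose enters through the GLUT transporters (Slc2a genes), is trapped in the cell by hexokinases, is committed to glycolysis by phosphofructokinase, and is split and oxidised to pyruvate, which is reduced to lactate or burned in mitochondria. Macrophages that sense microbial products are known to shift toward lactate production. HIF-1, whose oxygen-regulated subunit is encoded by Hif1a, is a transcription factor that binds a short core sequence, ACGTG, beside many glycolytic genes, and prolyl hydroxylases (Egln genes) mark it for destruction when oxygen is present. Its protein level is set largely by this destruction, which arrays of messenger RNA do not measure.

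The promoters of members that moved with CpG are shown because this core can be read in them. The windows run from 250 bases before to 50 bases after a gene's start (RefSeq, GRCm38.p6, 5′ to 3′ on the gene's strand), and capitals mark ACGTG or its reverse complement CACGT. The first 3 are those of the members with the largest increases with CpG, and the last is that of Slc2a6, which fell, though less than Pfkm. They lie at chr4:119108495-119108794 (plus strand, Slc2a1), chr12:73907617-73907916 (plus strand, Hif1a), chr6:82774405-82774704 (minus strand, Hk2) and chr2:27027949-27028248 (minus strand, Slc2a6).
Slc2a1: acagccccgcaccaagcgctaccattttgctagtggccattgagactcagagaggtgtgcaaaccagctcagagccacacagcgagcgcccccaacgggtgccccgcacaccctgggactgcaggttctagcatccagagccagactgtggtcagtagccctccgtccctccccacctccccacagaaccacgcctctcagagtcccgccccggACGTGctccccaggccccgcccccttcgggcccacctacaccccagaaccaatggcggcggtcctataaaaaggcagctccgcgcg
Hif1a: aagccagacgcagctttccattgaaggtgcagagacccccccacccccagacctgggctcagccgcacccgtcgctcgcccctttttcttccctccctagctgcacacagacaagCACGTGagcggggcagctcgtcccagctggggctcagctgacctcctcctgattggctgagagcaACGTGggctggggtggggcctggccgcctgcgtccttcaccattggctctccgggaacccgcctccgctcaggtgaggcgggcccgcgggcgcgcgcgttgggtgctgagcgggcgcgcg
Hk2: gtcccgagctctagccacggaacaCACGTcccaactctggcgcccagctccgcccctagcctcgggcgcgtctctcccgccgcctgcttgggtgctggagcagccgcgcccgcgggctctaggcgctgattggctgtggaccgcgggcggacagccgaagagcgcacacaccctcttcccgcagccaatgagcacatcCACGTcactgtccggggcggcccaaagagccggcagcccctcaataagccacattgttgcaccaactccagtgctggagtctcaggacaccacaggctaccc
Slc2a6: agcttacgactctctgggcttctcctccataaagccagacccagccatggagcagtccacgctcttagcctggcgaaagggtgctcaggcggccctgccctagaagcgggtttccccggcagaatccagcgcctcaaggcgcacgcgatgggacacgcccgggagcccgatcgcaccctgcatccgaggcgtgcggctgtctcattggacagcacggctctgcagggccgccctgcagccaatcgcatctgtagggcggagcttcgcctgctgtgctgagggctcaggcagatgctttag

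The core stands once before Slc2a1, beginning 36 bases before its start. It stands 3 times before Hif1a, where a pair of matches overlaps in the palindrome CACGTG, which is also an E-box, and 2 times before Hk2. The Slc2a6 window holds none of these letters in this order. Pfkm, the member that fell most and whose windows are not printed, holds the core 3 times in 1 window and 1 time in another. Its other windows hold none. A window was given for 32 of the 33 members. Of the 23 measured members with a window, 17 held the core in at least 1 window, against 30.4% of the 6671 measured genes with a window. All 5 members that rose with CpG held it, and so did 12 of the 18 other measured members, so the core was common among members that moved and among members that did not. Counted by window, 20 of 34 held the core on either strand, against 26.3% of the 8543 windows of measured genes. The E-box CACGTG was found in 4 of the 34 windows and the NF-kB consensus also in 4, each against 10.2% of the windows of measured genes. A match describes the letters only.

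Values below are log2 signals after background correction and quantile normalisation, and differences are differences of group means with their standard error (SE, n = 3 arrays per group). A gene is said to have risen or fallen when the Benjamini-Hochberg adjusted p of limma, over all 8101 genes, was under 0.05. Between 10705 and 11181 of 25697 probes were detected on each array, and the number of arrays limits the precision, with a median SE of 0.139. Of 8 macrophage markers with a probe, 6 were detected on all 12 arrays, among them Adgre1, Spi1 and Lyz2. Itgam was detected on the 3 CpG arrays alone, and Mertk on none. The summed signal of the 8 (linear scale) was 26100 to 29300 in untreated arrays, 23100 to 27100 with gefitinib, 38100 to 40800 with CpG and 21600 to 24800 with both, so that it moved with CpG. All 5 probed lymphocyte markers and 6 of 7 fibroblast or epithelial markers were undetected on all 12 arrays. The exception, Cdh1, was detected on 2 of 3 CpG arrays and on all 3 of each other group, with group means from 5.08 to 5.41. Of the 4 probed granulocyte markers, Mpo and S100a9 were undetected on all 12 arrays, while S100a8, which macrophages also express, was detected on all of them. The summed signal of that list was 236 to 303 in untreated arrays, 169 to 211 with gefitinib, 1250 to 1940 with CpG and 187 to 204 with both. The part of these shifts in the results below was not tested.

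With CpG alone, 5 members rose and 2 fell. The glucose transporter Slc2a1 rose most, followed by Hif1a, hexokinase Hk2, P4ha1 and hexokinase Hk3, while the muscle-type phosphofructokinase Pfkm and the transporter Slc2a6 fell. The 17 others, which include every enzyme from aldolase to lactate dehydrogenase that was measured, did not pass the test. Over all genes, 10.0% were called higher and 15.3% lower, so that the share of members called higher (20.8%) was above that of all genes and the share called lower (8.33%) was below it. Since the members were chosen with earlier results of these data known, these shares are a description and not a test. Without untreated replicate 1, and under median scaling, 3 members were called higher (12.5%). The number of all genes called higher fell as well, from 813 to 485 of 8101 under median scaling. It was between 663 and 794 when 1 array was left out. The median difference of the members was 0.08, against -0.06 over all genes. When gefitinib was given before CpG, 7 members were lower than with CpG alone and 3 were higher, against 15.2% of all genes lower and 22.0% higher. Slc2a1, Hif1a, Hk2, P4ha1, Pgam1, Pgk1 and Pfkl were lower, and Pfkm, Slc2a6 and Aldoc were higher. Both comparisons use the CpG arrays, so their values are set side by side and are not independent.

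**Figure D1:**
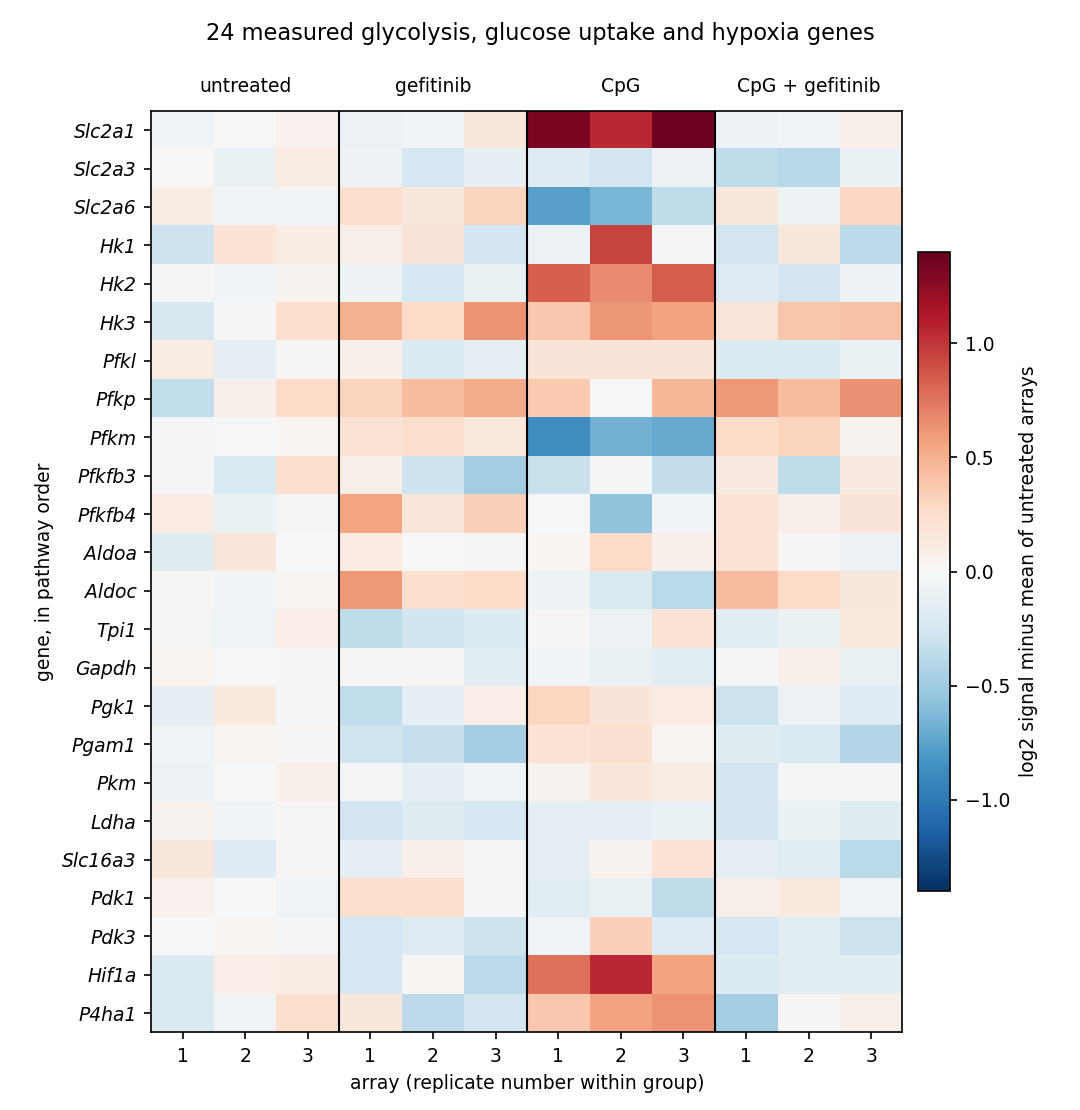
Log2 signal of the 24 measured members (rows, in pathway order) on the 12 arrays (columns), minus the mean of the 3 untreated arrays, with red above and blue below it. The CpG columns stand out at Slc2a1, Hk2 and Hif1a (red) and at Slc2a6 and Pfkm (blue), and the columns of CpG with gefitinib do not at these genes.

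Slc2a1 encodes GLUT1, the transporter through which many cells take up glucose under basal conditions. Its signal was 10.50, 10.54 and 10.60 on the untreated arrays, 10.47, 10.51 and 10.70 with gefitinib, 11.87, 11.60 and 11.92 with CpG, and 10.47, 10.50 and 10.63 with CpG and gefitinib. All 3 CpG arrays lay above the 9 others, whose values overlapped. Slc2a1 rose by 1.25 ± 0.11 with CpG, a 2.37-fold change (adjusted p = 2.53e-06), the largest change of a measured member in that comparison. It was lower by the same measure with gefitinib before CpG (-1.26 ± 0.11, adjusted p = 1.66e-06). With CpG and gefitinib it differed from gefitinib alone by -0.03 (95% interval -0.27 to 0.21) and from untreated cells by -0.02 (-0.26 to 0.23).

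Slc2a6 encodes GLUT6, a transporter of the same family that is found on lysosomes in mouse macrophages. Its signal was 11.65, 11.48 and 11.51 in untreated cells, 11.77, 11.70 and 11.85 with gefitinib, 10.79, 10.91 and 11.19 with CpG, and 11.70, 11.47 and 11.84 with both. The 3 CpG arrays lay below all others, the opposite order from Slc2a1. Slc2a6 fell by 0.58 ± 0.13 on the log2 scale with CpG (adjusted p = 0.00435) and was higher by 0.71 ± 0.13 when gefitinib preceded CpG (adjusted p = 0.000728). Slc2a3, the gene of the high-affinity transporter GLUT3, had means of 9.33 in untreated cells and 9.16 with CpG and did not pass the threshold in any comparison. Its difference with CpG was -0.17 (95% interval -0.41 to 0.07).

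Hexokinases phosphorylate glucose, and Hk2 is a form that can bind to mitochondria and is induced in many activated cells. Hk2 gave 10.68, 10.66 and 10.74 in untreated cells, 10.63, 10.45 and 10.59 with gefitinib, 11.53, 11.36 and 11.54 with CpG, and 10.52, 10.43 and 10.62 with both. The CpG arrays again lay above the 9 others. Hk2 rose by 0.78 ± 0.10 with CpG (1.72-fold, adjusted p = 6.35e-05) and was lower with gefitinib before CpG than with CpG alone (-0.95 ± 0.10, adjusted p = 7.6e-06).

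Hk3, a hexokinase of myeloid cells, had another pattern. Its mean was 8.48 ± 0.23 (SD, n = 3) in untreated cells, 8.94 ± 0.18 with gefitinib and 8.80 ± 0.13 with both agents, and the CpG arrays stood at 8.85, 9.09 and 9.04. It rose by 0.52 ± 0.14 with CpG (adjusted p = 0.0138), while the gefitinib difference of 0.46 ± 0.14 missed the threshold (adjusted p = 0.0572). With both agents it differed from CpG alone by -0.20 (95% interval -0.49 to 0.10). The rise with CpG was lost under median scaling (0.44, adjusted p = 0.0891) and without untreated replicate 1 (0.41, adjusted p = 0.0619), and the gefitinib difference passed without untreated replicate 3 (0.58, adjusted p = 0.0407) and under 5 of the 8 processing alternatives (adjusted p from 0.0243 to 0.0412). Hk1, the widely expressed hexokinase, was dim and uneven: CpG replicate 2 stood at 6.93 and the other CpG arrays at 5.89 and 5.95. It did not pass in any comparison, with the difference for CpG at 0.28 (95% interval -0.25 to 0.82).

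**Figure D2:**
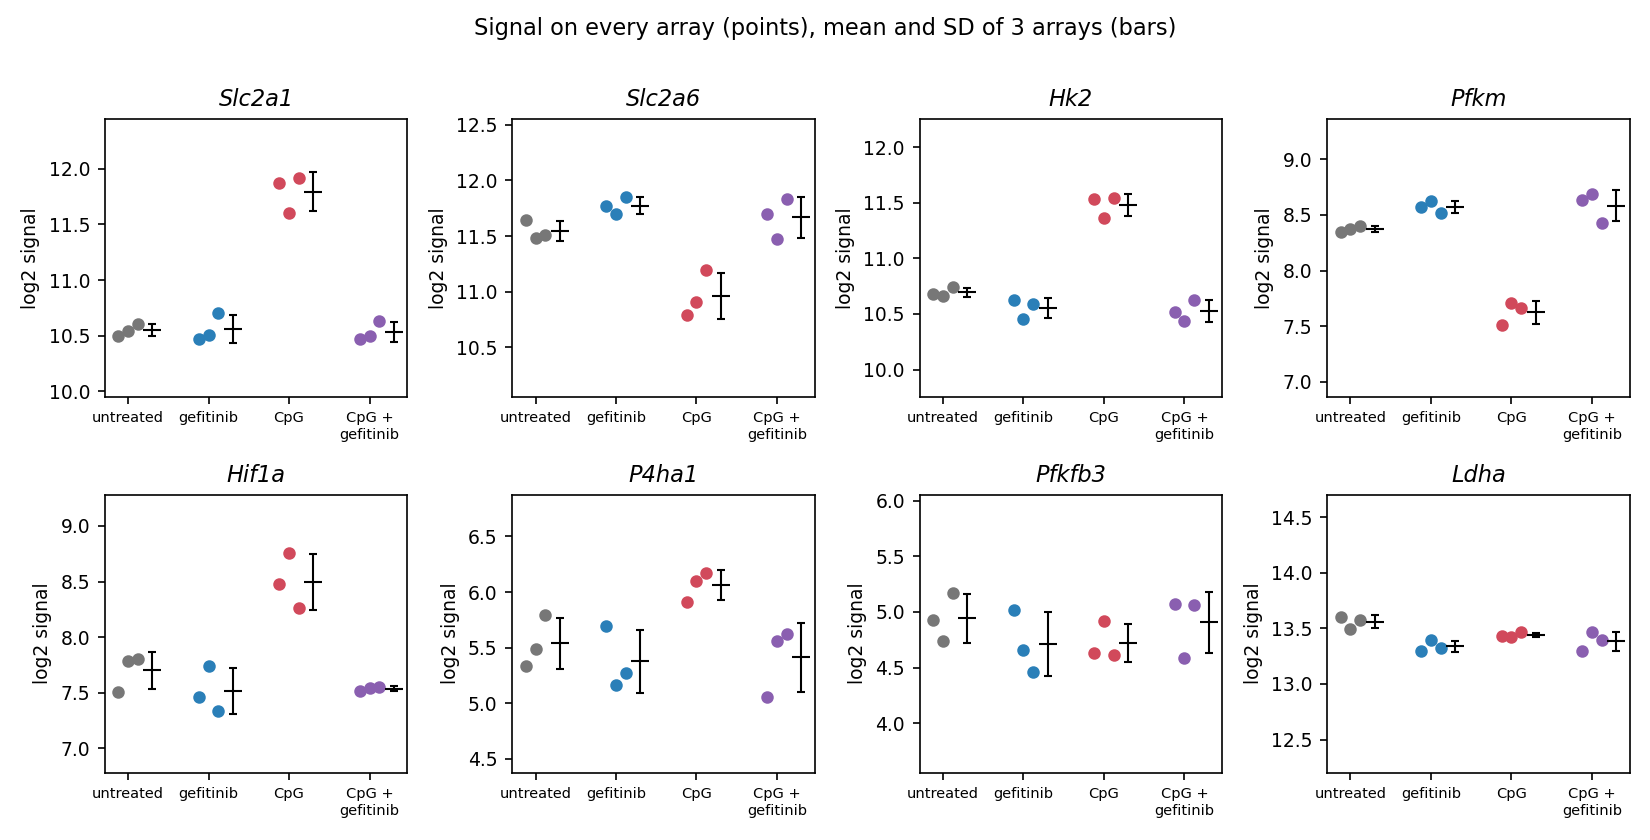
Log2 signal of 8 members on every array (points, 3 per group), with the mean and SD of the group beside them; each panel has its own vertical range. For Slc2a1, Hk2, Hif1a and P4ha1 the CpG points lie above all others, for Slc2a6 and Pfkm below all others, and for Pfkfb3 they overlap with other groups. The CpG points of Ldha lie below the untreated points and above those of gefitinib, and overlap with those of both agents.

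Phosphofructokinase commits sugar to glycolysis, and its 3 genes did not move together. Pfkm, the muscle-type gene, gave 8.35, 8.37 and 8.40 in untreated cells, 8.58, 8.62 and 8.51 with gefitinib, 7.51, 7.71 and 7.66 with CpG, and 8.63, 8.69 and 8.43 with both. The CpG arrays were the lowest. Pfkm fell by 0.75 ± 0.10 on the log2 scale with CpG (adjusted p = 0.000109) and was higher by 0.96 ± 0.10 with gefitinib before CpG (1.94-fold, adjusted p = 8.36e-06). Its other 2 probes gave -0.52 and -0.36 with CpG and 0.55 and 0.59 with gefitinib before CpG; 3 of these 4 differences passed a test over all kept probes, the exception being -0.36 (adjusted p = 0.0581).

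Pfkl, the liver-type gene, had a mean of 10.69 with CpG and 10.35 ± 0.06 (SD, n = 3) with both agents, a difference of -0.34 ± 0.10 (adjusted p = 0.0195). It did not pass with CpG against untreated cells (0.18, 95% interval -0.04 to 0.40). Its call was lost under median scaling (adjusted p = 0.0771), without CpG replicate 1 (0.0508) and without replicate 1 or 2 of CpG with gefitinib (0.0616 and 0.0590). Its dimmer probe gave -0.38 (adjusted p = 0.219). Pfkp, the platelet-type gene, did not pass in any comparison. Its largest difference was 0.56 ± 0.16 for both agents against untreated cells (adjusted p = 0.0726), which passed without CpG replicate 2 (adjusted p = 0.0432) and under 4 of the 8 alternatives (0.0316 to 0.0493), and its second probe gave 0.15 there.

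Pfkfb3 and Pfkfb4 make and remove fructose 2,6-bisphosphate, the main activator of phosphofructokinase. Pfkfb3, the isoform known for induction by hypoxia and by inflammatory signals, was near the limit of detection, with signals of 4.92, 4.74 and 5.17 in untreated cells, 5.02, 4.66 and 4.46 with gefitinib, 4.63, 4.92 and 4.62 with CpG, and 5.07, 4.59 and 5.07 with both. The groups overlapped, it was detected on 5 of the 12 arrays, and the lowest detected signal on an array lay between 4.87 and 4.97, so a difference in Pfkfb3 could be read only above that floor. Pfkfb4 was detected on all arrays. It differed by 0.35 ± 0.15 with gefitinib (adjusted p = 0.161) and by 0.35 ± 0.15 with gefitinib before CpG (adjusted p = 0.0792), neither of which passed. With the replicate number as a block the latter passed (adjusted p = 0.023), as it did for the mean of its probes (0.37, adjusted p = 0.0383).

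From aldolase to pyruvate kinase 7 of the 8 listed genes were measured, and with CpG alone none of the 7 passed, against 10.0% of all genes higher and 15.3% lower. Gapdh, which oxidises glyceraldehyde 3-phosphate, had means of 14.03 in untreated cells and 13.93 with CpG (difference -0.10, 95% interval -0.30 to 0.11). Pkm, the gene of the pyruvate kinase expressed in most tissues, differed by 0.11 (-0.11 to 0.32), Tpi1, the triose phosphate isomerase gene, by 0.04 (-0.20 to 0.29), and Aldoa, the main aldolase gene, by 0.12 (-0.13 to 0.38). Gapdh, Pkm, Tpi1 and Aldoa did not pass in any comparison, nor did the second probe of Gapdh or the other probes of Tpi1.

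With gefitinib before CpG, 2 of these 7 genes were lower than with CpG alone and 1 was higher, against 15.2% of all genes lower and 22.0% higher. Pgam1, which moves the phosphate of phosphoglycerate, had a mean of 10.31 ± 0.10 (SD, n = 3) with CpG and 9.90 ± 0.13 with both, a difference of -0.41 ± 0.10 (adjusted p = 0.00782). Its mean in untreated cells was 10.16 ± 0.05 and with gefitinib alone 9.81 ± 0.09, so that the 6 arrays with gefitinib lay below the 6 without it. The gefitinib difference of -0.35 ± 0.10 did not pass (adjusted p = 0.0556). It passed under 6 of the 8 processing alternatives (adjusted p from 0.0124 to 0.0469) and without CpG replicate 2 (0.0465), and so lies at the threshold. Aldoc, an aldolase gene best known from brain, showed the reverse order, with 8.56 ± 0.03 in untreated cells, 8.93 ± 0.20 with gefitinib, 8.34 ± 0.15 with CpG and 8.85 ± 0.14 with both. It was higher by 0.51 ± 0.12 with gefitinib before CpG (adjusted p = 0.00584), and the gefitinib difference of 0.37 ± 0.12 did not pass (adjusted p = 0.0863), though it did under 3 of the 8 alternatives (0.0374 to 0.0383). The calls for gefitinib before CpG were lost under median scaling, with adjusted p at 0.0714 for Pgam1 and 0.0622 for Aldoc.

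Pgk1, whose enzyme makes the first ATP of glycolysis, was dim, at 5.91 ± 0.09 with CpG and 5.53 ± 0.11 with both agents. The difference of -0.39 ± 0.12 passed (adjusted p = 0.0263) but was lost under median scaling (adjusted p = 0.156) and without background correction, where it was -0.14 (adjusted p = 0.0896). It was also lost without CpG replicate 1 (0.0919) and without replicate 1 or 3 of CpG with gefitinib (0.0996 and 0.0601).

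Ldha, which encodes the lactate dehydrogenase subunit favoured in lactate-producing cells, was detected on every array. Its signal was 13.61, 13.49 and 13.58 in untreated cells, 13.29, 13.39 and 13.32 with gefitinib, 13.43, 13.42 and 13.46 with CpG, and 13.29, 13.46 and 13.39 with both. The untreated arrays were the highest, and the differences were small. Neither CpG (-0.12, 95% interval -0.32 to 0.08) nor gefitinib before CpG (-0.06, -0.25 to 0.14) gave a difference past the threshold, and gefitinib alone gave -0.22 ± 0.09 (adjusted p = 0.156, and 0.0357 without background correction).

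Slc16a3, the gene of the lactate exporter MCT4, was detected on 5 arrays and on none of the 3 with both agents. Its brightest probe did not pass in any comparison. A second probe, detected on 2 of 3 CpG arrays and 0 of 3 with both agents, passed for gefitinib before CpG in a test over all kept probes (adjusted p = 0.0278), with a mean of 5.02 against 4.48, close to the detection floor. Pdk1 and Pdk3, kinases that switch off pyruvate dehydrogenase, did not pass in any comparison of the unblocked fit. For gefitinib before CpG the difference was 0.26 for Pdk1 (95% interval 0.02 to 0.50, adjusted p = 0.0853) and -0.26 for Pdk3 (adjusted p = 0.113), in opposite directions. With the replicate block Pdk1 passed there (adjusted p = 0.0316).

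Hif1a gave 7.51, 7.79 and 7.81 in untreated cells, 7.46, 7.74 and 7.34 with gefitinib, 8.48, 8.76 and 8.26 with CpG, and 7.52, 7.54 and 7.56 with both. The CpG arrays lay above all others. Hif1a rose by 0.80 ± 0.14 with CpG (1.74-fold, adjusted p = 0.00111) and was lower with gefitinib before CpG (-0.96 ± 0.14, 1.95-fold, adjusted p = 0.000161).

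P4ha1, a catalytic subunit of the collagen prolyl hydroxylase and a known HIF target, was dim at 5.34, 5.49 and 5.79 in untreated cells, 5.70, 5.17 and 5.27 with gefitinib, 5.91, 6.10 and 6.17 with CpG, and 5.06, 5.56 and 5.62 with both. Here too the CpG arrays were the highest, with a smaller gap to the others. P4ha1 rose by 0.52 ± 0.18 with CpG (adjusted p = 0.0475), a call lost in 7 of the 12 fits that left out an array: untreated replicate 1 (adjusted p = 0.159) or 2 (0.119), gefitinib replicate 3 (0.0560), CpG replicate 1 (0.0558), 2 (0.103) or 3 (0.122), and replicate 2 of CpG with gefitinib (0.0541). It was also lost under median scaling (0.129), with no filter on dim probes (0.0917) and without background correction, where the difference was 0.19 (0.0613). P4ha1 was lower with gefitinib before CpG (-0.65 ± 0.18, adjusted p = 0.0119), except without replicate 1 of CpG with gefitinib (adjusted p = 0.0601), and without background correction this difference was -0.23.

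The remaining members of the hypoxia response could not be followed. Egln1 was detected on 1 array, a CpG array, and Egln3, Bnip3 and the lactate transporter Slc16a1 on none. Higd1a was detected on 1 array, an untreated one. Gpi1, Eno1, Ldhb and Ero1a were not analysed here. No measured member passed the filter through the arrays of 1 group alone.

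**Figure D3:**
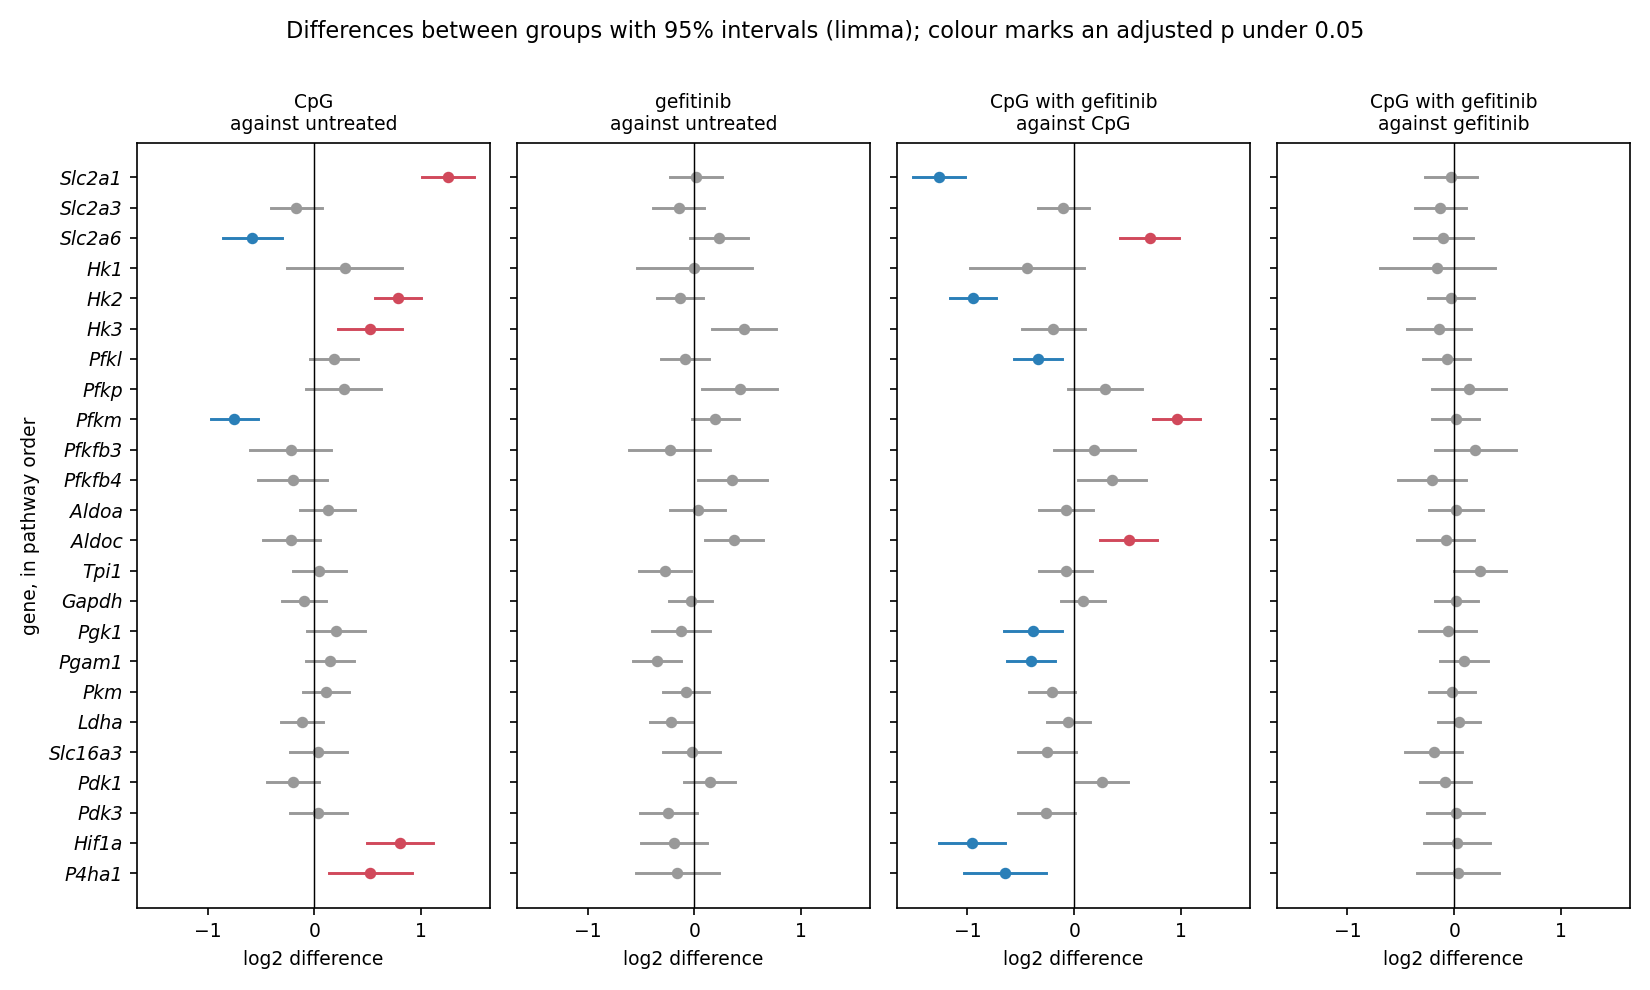
Differences of group means (points, log2) with 95% intervals (lines) for the 24 measured members in 4 comparisons, coloured red (higher) or blue (lower) where limma's adjusted p was under 0.05. CpG against untreated has 5 red and 2 blue members, CpG with gefitinib against CpG has 3 red and 7 blue, and the other panels have none.

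In the comparison for which the series was described, CpG with gefitinib against CpG, the counts of 7 members lower (29.2% of 24) and 3 higher (12.5%) stand beside 15.2% and 22.0% of all genes. The median difference was -0.15 for the members and 0.06 for all genes. Leaving out replicate 1 of CpG with gefitinib brought the 7 down to 4, and median scaling did the same. Over all genes the number lower fell from 1233 to 789 of 8101 under median scaling. It was between 978 and 1249 when 1 array was left out. With the replicate block 5 members were higher in place of 3, Pfkfb4 and Pdk1 being added.

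With gefitinib alone no member passed the threshold, with 4.96% of all genes called higher and 2.84% lower. At an unadjusted p under 0.05, 7 of the 24 members differed, against 24.5% of all genes. Those with the lowest p were Pgam1, Hk3 and Aldoc, described above. Slc2a1 differed from untreated cells by 0.01 (95% interval -0.23 to 0.26), Hk2 by -0.14 (-0.35 to 0.08), Pfkm by 0.20 (-0.02 to 0.41) and Hif1a by -0.19 (-0.50 to 0.12).

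For CpG in the presence of gefitinib, set against gefitinib alone, 0 of 24 members passed limma's test and 0 had an unadjusted p under 0.05, while over all genes 0 passed and 252 (3.11%) had one. The differences of the members ranged from -0.21 to 0.24. For Hk2 the interval of the difference was -0.25 to 0.18, for Hif1a -0.29 to 0.33, for Pfkm -0.21 to 0.23 and for Slc2a6 -0.38 to 0.17, so that a change of the size seen with CpG alone lay outside the interval for each of these 4 genes and for Slc2a1. Against untreated cells, CpG with gefitinib gave no member past the threshold, with 2.54% of all genes called higher and 1.33% lower. Under median scaling 56 of the same genes were higher and 16 lower. An unadjusted p under 0.05 was found for 5 of the 24 members, against 19.1% of all genes.

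Whether the CpG effect itself differed with gefitinib was tested as an interaction in the same fit. It passed for 5 members, lower for Slc2a1, Hk2, Hif1a and Hk3 and higher for Pfkm, with 6.34% of all genes called higher and 6.00% lower. For Slc2a6 the interaction was 0.48 ± 0.18 (adjusted p = 0.112), which passed without CpG replicate 3 (0.59, adjusted p = 0.0413).

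Other genes of sugar metabolism were followed in 5 lists. Their counts stand beside 10.0% of all genes higher and 15.3% lower with CpG, and 22.0% higher and 15.2% lower with gefitinib before CpG, so that over all genes too more were lower with CpG and more were higher with gefitinib before it. Of 31 other genes of glucose transport and glycolysis 12 were measured, of which 0 rose and 3 fell with CpG, and 4 were higher and 1 lower with gefitinib before CpG. The 1 lower gene, Fbp1, is named for its detection, on 1 untreated and 2 CpG arrays and on no array with gefitinib. Fbp1 passed the filter only through arrays without gefitinib, so its call is a description and is not to be weighed against the 15.2% of all genes. It was lost under median scaling, without background correction and with no filter (adjusted p up to 0.0909). Pfkfb2, the heart-type counterpart of Pfkfb3, fell with CpG (-0.70 ± 0.12, adjusted p = 0.000596) and was higher by 0.88 ± 0.12 with gefitinib before CpG (adjusted p = 5.47e-05), which is the order seen for Pfkm. Without background correction these differences were -0.38 and 0.50. The transporter gene Slc2a8 was detected on 1 of the 3 CpG arrays and on all 3 with both agents, with means of 4.79 and 5.72 (adjusted p = 0.00036), the first of which lies under the detection floor, so that the size of the difference is not well measured. The galactose mutarotase gene Galm, detected on 2 of the 3 CpG arrays, had means of 5.01 and 5.85 (adjusted p = 0.000273). Without background correction these differences were 0.28 and 0.27.

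Of 7 pentose phosphate pathway genes 4 were measured, and 4 passed as higher with gefitinib before CpG, while under median scaling none of the 4 did (adjusted p from 0.0654 to 0.487). The largest difference was that of Taldo1, the transaldolase gene (0.60 ± 0.13, adjusted p = 0.00339). Single arrays also ended the calls of Tkt (CpG replicate 1 or 2, or replicate 1 or 3 of CpG with gefitinib), Pgls (CpG replicate 2 or replicate 1 of CpG with gefitinib) and Rpia (replicate 1 of CpG with gefitinib), with adjusted p from 0.0515 to 0.114. With CpG alone 1 of the 4, Rpia, fell (adjusted p = 0.0295), and lost its call under median scaling, with no filter, and without untreated replicate 1 or 2 or CpG replicate 1 or 3 (adjusted p from 0.0504 to 0.108). Among 6 measured of 12 genes of pyruvate entry into mitochondria, 2 fell with CpG and 3 were higher with gefitinib before CpG. Pdp1, a phosphatase that switches pyruvate dehydrogenase on, was detected on all 3 untreated arrays and on 0 of 3 CpG arrays, and on the background-corrected scale was at least 1.48-fold lower with CpG (adjusted p = 0.00202). The bound rests on the lowest detected signal of each array, and the group means were 5.49 and 4.78. Without background correction the log2 difference was -0.21 (adjusted p = 0.0225), and its call for gefitinib before CpG was lost (0.16, adjusted p = 0.0574). Pdp2, a second such phosphatase, was higher by 0.91 ± 0.18 with gefitinib before CpG (adjusted p = 0.00167). Of 5 measured of 9 glycogen genes, the brain-type phosphorylase Pygb alone passed, lower with CpG (-0.72 ± 0.14, adjusted p = 0.00201) and higher with gefitinib before it (0.80 ± 0.14, adjusted p = 0.000588), or -0.41 and 0.47 without background correction.

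Of 17 genes of the citric acid cycle and itaconate 13 were measured, and 1 fell with CpG and 2 were higher with gefitinib before CpG, each call being lost without some single array. The gene that fell, Idh3a, a subunit of isocitrate dehydrogenase, gave -0.52 ± 0.15 (adjusted p = 0.0255) and lost its call without untreated replicate 1, 2 or 3 or CpG replicate 1 or 2 (adjusted p from 0.0531 to 0.0989). Of 11 other components of the HIF pathway 7 were measured, none passed with CpG, and 1 was lower with gefitinib before CpG. This was the prolyl hydroxylase gene Egln2 (-0.56 ± 0.19, adjusted p = 0.0295), whose call was lost without CpG replicate 2 or 3 or replicate 1 or 3 of CpG with gefitinib (adjusted p from 0.0786 to 0.116), under median scaling (0.0757) and with no filter (0.0616), and whose difference was -0.26 without background correction.

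Hypoxia-inducible genes outside glycolysis did not follow one pattern. Of 30 listed 23 were measured, 1 of which, Adm, passed the filter through the CpG arrays alone and is left out of the counts. Of the other 22, 3 rose and 2 fell with CpG, against 10.0% and 15.3% of all genes. With gefitinib alone 4 rose, against 4.96%, and with gefitinib before CpG 4 were higher and 3 lower than with CpG, against 22.0% and 15.2%. Of these 4 higher genes, Narf is named for its detection, on 2 gefitinib arrays, 1 array with both agents and no other. Narf passed the filter only through arrays with gefitinib, so its call is a description and is not to be weighed against the 22.0% of all genes. It was lost under median scaling and without background correction (adjusted p up to 0.123). Cited2, which encodes a protein that competes with HIF-1 for its coactivators, rose by 1.32 ± 0.15 with CpG (adjusted p = 2.82e-05) and was lower with gefitinib before it (-1.21 ± 0.15, adjusted p = 4.51e-05). Adm, the gene of the vasodilator adrenomedullin, was detected on the 3 CpG arrays and on no other, with a mean of 5.85 there, 4.67 in untreated cells and 4.69 with both agents. Since that detection chose it, its values are a description, and without background correction its log2 differences were 0.36 from untreated cells and -0.35 for both agents against CpG. Bhlhe40, a transcriptional repressor gene, went the other way, lower with CpG (-1.67 ± 0.13, adjusted p = 6.69e-07) and higher by 1.82 ± 0.13 with gefitinib before CpG (adjusted p = 2.23e-07).

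Vegfa, Ddit4 and Bnip3l, singled out after their values were seen, were the 3 genes of this list higher with both agents than in untreated cells. Vegfa, the angiogenic growth factor gene, had means of 6.67 ± 0.14 (SD, n = 3) in untreated cells, 7.57 ± 0.08 with gefitinib, 7.68 ± 0.10 with CpG and 7.68 ± 0.21 with both. Each treated group lay above the untreated arrays, and CpG with gefitinib differed from CpG by 0.00 (adjusted p = 0.999). Ddit4, which encodes the mTORC1 inhibitor REDD1, had means of 6.72 ± 0.23, 8.10, 7.53 ± 0.24 and 7.90 ± 0.22 in the same order and rose by 1.39 ± 0.15 with gefitinib (adjusted p = 0.000406) and by 0.81 ± 0.15 with CpG (adjusted p = 0.00155). Without background correction the CpG and gefitinib differences were 0.60 and 0.53 for Vegfa and 0.48 and 0.88 for Ddit4. Bnip3l, the gene of a mitophagy receptor, rose by 0.54 ± 0.11 with gefitinib (adjusted p = 0.011) and fell with CpG (-0.42 ± 0.11, adjusted p = 0.0124). The first of these calls was lost under median scaling (adjusted p = 0.254) and without gefitinib replicate 3 (0.0513), and the second without untreated replicate 1 (0.0530). With both agents Bnip3l was higher than in untreated cells by 0.68 ± 0.11 (adjusted p = 0.00512), which median scaling also ended (adjusted p = 0.151).

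**Figure D4:**
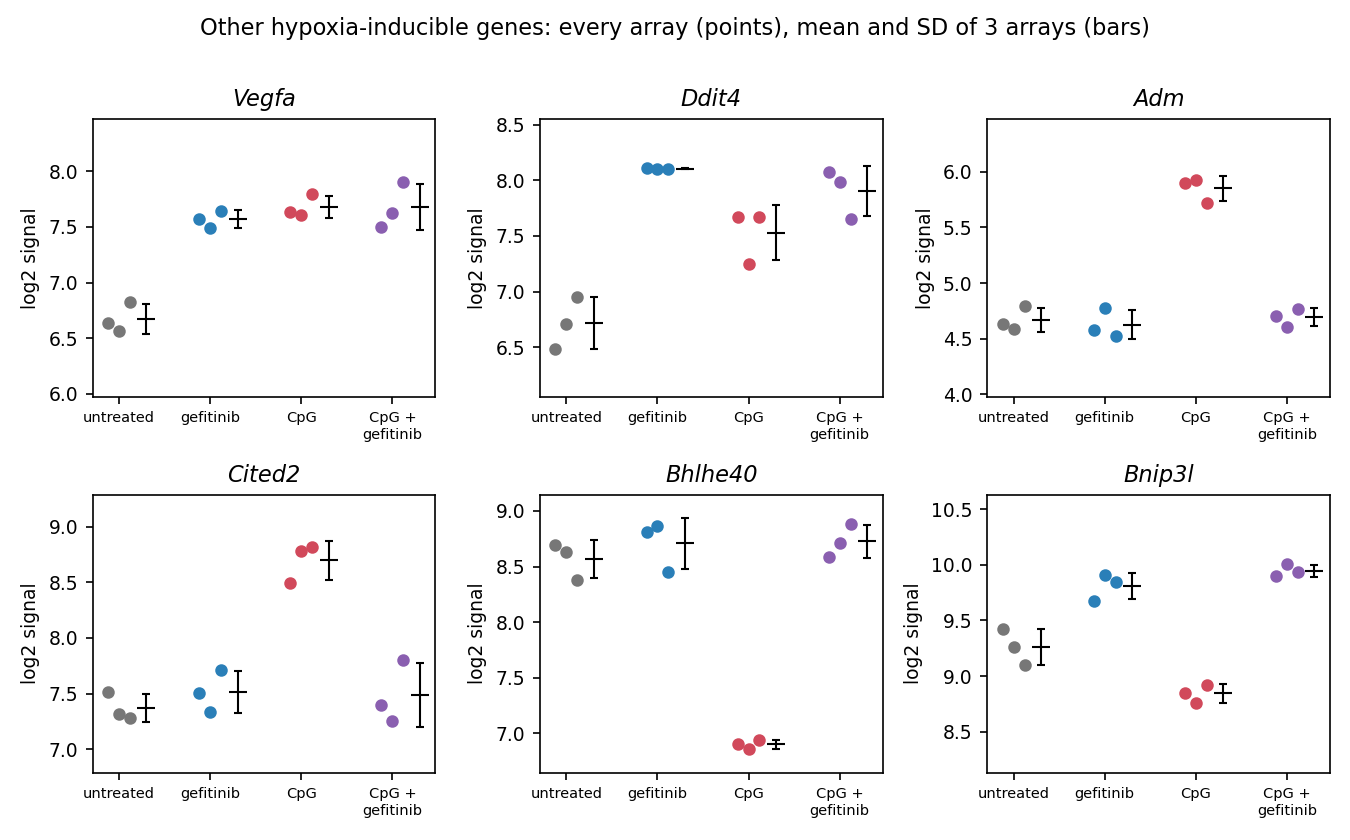
Log2 signal of 6 hypoxia-inducible genes outside the glycolytic set on every array (points, 3 per group), with the mean and SD of the group beside them; each panel has its own vertical range. Adm and Cited2 are high on the CpG arrays alone and Bhlhe40 low on them, while Vegfa and Ddit4 lie above the untreated arrays in all 3 treated groups.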

How the data were processed

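In all, 12 Illumina bead arrays of RAW264.7 cells were used, in 4 groups of 3, and each array is a biological replicate per the labels. GenomeStudio 2010.2 is named in the submitters' processing notes. The authors deposited one linear, non-normalized intensity and one detection p-value for every probe and array. A second deposited table holds intensity values that the authors had quantile normalized: its arrays share their quantiles and keep the rank order of the first table (Spearman correlation 1). No slide or scan date was found in the files, so no batch was tested.

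In limma 3.58.1 (R 4.3.3), neqc corrected the background by normexp with parameters estimated from detection p-values, added an offset of 16, quantile normalized the arrays and took log2. Of 25697 probes, 23978 had 1 gene symbol in the platform annotation, 0 had several and 1719 were unnamed; 11977 passed the filter of a detection p below 0.05 in 3 or more arrays. The brightest kept probe stood for its gene (8101 genes). The 12 arrays entered one lmFit model of 4 group means, moderated by eBayes (residual degrees of freedom 8, prior 5.07), with 6 contrasts and Benjamini-Hochberg adjustment over all genes. The procedure was tested on simulated data. Where no array of a group detected a gene, folds are bounds from the lowest detected signal of each of its arrays.

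The members, the other gene lists and the markers were chosen with earlier results of these data known. All 33 members are accounted for; values on every array are given for Slc2a1, Slc2a6, Hk2, Pfkfb3, Ldha and Hif1a (and would be for Egln3, had it been measured), and for the 6 members with the largest changes past the threshold in each of the comparisons of CpG with untreated, gefitinib with untreated and CpG with gefitinib with CpG. Of each other list at most 3 genes are named for their size of change; those named beyond this are marked. Alternatives were cyclic loess, median scaling, no background correction, the authors' table, other filters, the mean of a gene's probes, a replicate block and leaving out each array. Same-numbered arrays deviated together (correlation of deviations from group means above 0.1 in all 3 pairs) between CpG and CpG with gefitinib (0.11, 0.344 and 0.35). They also did between gefitinib and CpG with gefitinib (0.241, 0.277 and 0.237). Over all groups 11 of 18 pairs did (from -0.153 to 0.35). These correlations come from the same arrays and do not settle whether the numbers pair the arrays. Unless the replicate block is named, the p-values are those of the fit without it. Promoters are RefSeq sequences of GRCm38.p6.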

Additional observations from a re-analysis of the deposited data

Results flagged for a closer look

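For 5 members the CpG effect differed with and without gefitinib by a test of the difference itself (limma's interaction term, n = 3 arrays per group, with 6.34% of all genes called higher and 6.00% lower). The Slc2a1 difference was -1.28 ± 0.16 log2 units (± SE, adjusted p = 0.000108), with a CpG effect of 1.25 without gefitinib and -0.03 with it. For Hk2 it was -0.81 ± 0.14 (adjusted p = 0.00169), from 0.78 to -0.03. For Hif1a it was -0.77 ± 0.20 (adjusted p = 0.0242), from 0.80 to 0.02. For Pfkm it was 0.76 ± 0.14 (adjusted p = 0.00308), from -0.75 to 0.01. For Hk3 it was -0.66 ± 0.19 (adjusted p = 0.0416), from 0.52 to -0.14.

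Median scaling ended the calls of Hk2 (adjusted p = 0.0793), Hif1a (0.197) and Hk3 (0.225). The Hif1a call was also lost without untreated replicate 1 (0.0574), gefitinib replicate 2 (0.0617) or replicate 1 of CpG with gefitinib (0.0530). The Hk3 call was lost with no filter on dim probes (0.0618) and without untreated replicate 1 (0.0940) or 2 (0.0804), gefitinib replicate 1 (0.0864) or 3 (0.10), CpG replicate 2 (0.0747) or 3 (0.0732), or replicate 1 (0.103), 2 (0.0616) or 3 (0.0580) of CpG with gefitinib.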

How the results depend on the processing

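No result of a member reversed under any alternative run. The calls of Slc2a1, Slc2a6, Hk2, Pfkm and Hif1a for CpG against untreated and for CpG with gefitinib against CpG held under all 8 alternatives and without each of the 12 arrays. Under median scaling the members higher with CpG numbered 3 in place of 5, those lower with gefitinib before CpG 4 in place of 7, and those lower in the interaction 1 in place of 4. For gefitinib alone the count of higher members, 0, became 1 with cyclic loess and with the filter of detection on all 12 arrays, and 2 without background correction, with the authors' table and with the replicate block. Its count of lower members, 0, became 2 without background correction and with the authors' table, and 1 with detection on all 12 arrays, with no filter, with the mean of probes and with the block. For CpG with gefitinib against untreated, 0 higher members became 1 without background correction, with the authors' table, with detection on all 12 arrays and with the block. The interaction's 1 higher member became 2 without background correction and with the authors' table. With the replicate block the members higher with gefitinib before CpG numbered 5 in place of 3. In that comparison and in CpG with gefitinib against gefitinib the block changed no other call of a member. Whether the numbers pair the arrays was not settled for any comparison, and 11 of 12 arrays correlated best with their own number.

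Leaving out 1 array gave 3 to 5 members higher and 2 lower with CpG, 0 to 1 in each direction with gefitinib, 3 higher and 4 to 8 lower with gefitinib before CpG, 0 to 1 higher and 0 lower with both against untreated, and 1 to 2 higher and 2 to 4 lower in the interaction. The lowest counts came without untreated replicate 1 for CpG (3 higher), without replicate 1 of CpG with gefitinib for gefitinib before CpG (4 lower), and without either of these arrays for the interaction (2 lower). Over all genes, median scaling gave 485 called higher with CpG in place of 813, 87 higher and 50 lower with gefitinib in place of 402 and 230, 789 lower with gefitinib before CpG in place of 1233, 56 higher and 16 lower with both against untreated in place of 206 and 108, and 253 higher and 281 lower in the interaction in place of 514 and 486. Without background correction and with the authors' table, 390 genes were lower with gefitinib, 322 and 323 were higher with both against untreated and 190 were lower. With the block 378 were lower with gefitinib and 189 with both against untreated, which became 168 with detection on all 12 arrays. Leaving out 1 array gave 144 to 513 higher and 62 to 343 lower with gefitinib, and 83 to 285 higher and 33 to 169 lower with both against untreated. The cause of these shifts was not tested. The planned slide block was not run, because the files give no slides. Probes near the detection floor (Pfkfb3, Slc16a3, P4ha1, Pgk1) limit what can be read for their genes.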
